A study of Mus musculus with 10 samples.

Results

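The microRNAs miR-9 and miR-124 were followed through 10 small RNA libraries from mouse RPE/choroid/sclera, the pigment epithelium, vascular layer and fibrous coat behind the neural retina. The members were the 4 mature arms listed as mmu-miR-9-5p, mmu-miR-9-3p, mmu-miR-124-3p and mmu-miR-124-5p, taken by name from the 1340 mature miRNAs of the deposited table. All 4 passed the filter on low values, a mean signal of at least 10, which left 588 miRNAs for testing. There were 5 libraries from left eyes and 5 from right eyes, all of strain C57BL/6J, genotype wild type and age postnatal day 34. Each of the title numbers 61, 64, 65, 66 and 68 occurs once per side. A goggle with a -20 dioptre lens, used to induce myopia, was worn on one eye of each mouse for 10 days, starting at postnatal day 24, and the fellow eye had none. Which eye carried it is not stated in the labels, so right eyes were compared with left eyes and no library is called treated. The tissue is labelled RPE/choroid/sclera, while the text of the extraction protocol speaks of retinae. A number is read here as a mouse, which the labels do not state outright, so p-values measure the spread between these 5 numbers.

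A mature miRNA is one arm of a short RNA hairpin, and bases 2 to 8 from its 5′ end, the seed, pair with target mRNAs. Both miRNAs are characteristic of the nervous system. miR-124 is abundant in differentiated neurons, the retina included, where it lowers many non-neuronal transcripts, while miR-9 is found in neural progenitors, neurons and glia and acts in the timing of neurogenesis. Each takes part in mutual repression with the REST complex, which silences neuronal genes in other cells.

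Mature miR-9 is encoded by 3 hairpin genes, so its reads cannot be assigned to one of them. The sequences are shown because both arms are identical in the 3 hairpins, which differ in the loop and flanks. In the first pair the capitals mark the seed, and in the hairpins they mark the 2 mature arms. Sequences are from RefSeq, build GRCm38.p6, written 5′ to 3′.
miR-9-5p: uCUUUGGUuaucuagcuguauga
miR-9-3p: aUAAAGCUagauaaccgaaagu
Mir9-1: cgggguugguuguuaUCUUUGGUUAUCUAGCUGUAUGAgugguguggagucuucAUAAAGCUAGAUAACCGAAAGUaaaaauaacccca
Mir9-2: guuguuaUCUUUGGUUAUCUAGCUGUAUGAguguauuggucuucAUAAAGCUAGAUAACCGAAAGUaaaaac
Mir9-3: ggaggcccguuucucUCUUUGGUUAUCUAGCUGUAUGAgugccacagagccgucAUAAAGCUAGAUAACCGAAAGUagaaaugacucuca

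The hairpin Mir9-1 lies at chr3:88215598-88215686 on the plus strand, in an intron of the long non-coding RNA Gm3764 in GENCODE. Mir9-2 is at chr13:83738814-83738885 (plus strand), in an exon of the non-coding C130071C03Rik, and Mir9-3 is at chr7:79505264-79505353 (plus strand), in an intron of Mir9-3hg. The deposited table places the miR-9 arms at the Mir9-1 hairpin, with miR-9-5p from 88215613 and miR-9-3p from 88215652. No other miRNA of the RefSeq table has the seed of either arm. The arms of miR-124, for which GENCODE also lists 3 hairpin genes, are placed by the deposited table at Mir124a-3 (chr2:180894040-180894107, plus strand). An exon of the non-coding Gm27032 overlaps 3 bases of that hairpin. The other genes are Mir124a-1 (chr14:64590657-64590741, within an exon of Mir124a-1hg, also called Rncr3) and Mir124a-2 (chr3:17795662-17795770, of which 27 bases lie in an exon of Mir124-2hg), both on the plus strand.

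The library of right eye 68 stood apart in photoreceptor miRNAs: the cluster of miR-183-5p, miR-182-5p and miR-96-5p summed to 1285 k there (k for kilo-units of normalised signal) and to between 167 k and 449 k in the other 9 libraries. Of the pigment epithelium markers, miR-204-5p was listed at the same 1931810 in all 10 libraries, and with miR-204-3p and miR-211-5p the sum was 1960 to 1990 k. Most of that sum was miR-204-5p. Deposited values are shared between libraries by rank, so this even sum does not measure an equal content of pigment epithelium. The libraries' sums of signal lay between 11878152 and 11879036. The values are normalised signals and not reads, so the depth is unknown and no counting interval is given. In a bulk library, fewer cells of a type and less RNA per cell cannot be told apart.

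The most abundant of the 4 arms was miR-9-5p. The order miR-9-5p, miR-124-3p, miR-9-3p, miR-124-5p held in 10 of 10 libraries. For miR-9-5p, the arm that forms the main miR-9 product, left eyes had a signal of 13581, 12901, 17084, 13129 and 17084 for numbers 61, 64, 65, 66 and 68. Right eyes in the same order had 16083, 11952, 19089, 19988 and 26150. The right eye was the higher one in 4 of 5 pairs, number 64 being the exception, and the 2 sides overlapped. Over the 10 libraries this is 16704 ± 4294 (SD, n = 10), 2.19-fold from lowest to highest, and 1.67-fold without right eye 68. miR-9-5p ranked between 49th and 69th of all miRNAs and held between 0.101% and 0.220% of the signal.

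The partner arm miR-9-3p was at 746 ± 293 (SD, n = 10). Left eyes had 494, 452, 551, 577 and 969, and right eyes 669, 427, 1073, 1092 and 1159, in the order of numbers above. Again the right eye was higher in 4 of 5 pairs and number 64 went the other way. In numbers 65 and 66 the right eye had 1.95-fold and 1.89-fold the signal of the left. The lowest library was right eye 64 and the highest right eye 68, as for miR-9-5p, and the range was 2.72-fold, or 2.56-fold without right eye 68.

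For miR-124-3p, the main miR-124 product, left eyes had 3553, 3768, 7383, 2891 and 2537, and right eyes 1752, 5278, 2428, 1555 and 19089. This gives 5023 ± 5243 over the 10 libraries (SD, n = 10), and 3461 ± 1857 over the 9 without right eye 68. The lowest library was right eye 66 and the highest right eye 68, a 12.3-fold range, or 4.75-fold without the latter. Left eye 65 was second highest. The deposited values move in shared steps of rank: right eye 68 gave miR-124-3p the same 19089 at rank 56 that miR-9-5p had in right eye 65.

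The minor arm miR-124-5p had low signals, 11.1, 28.5, 46.3, 28.7 and 18.5 in left eyes and 13.0, 42.5, 20.1, 9.38 and 119.6 in right eyes. Its lowest and highest libraries were the same as for miR-124-3p, right eyes 66 and 68. The range was 12.8-fold, and 4.94-fold without right eye 68. Left and right eyes overlapped for both miR-124 arms.

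**Figure D1:**
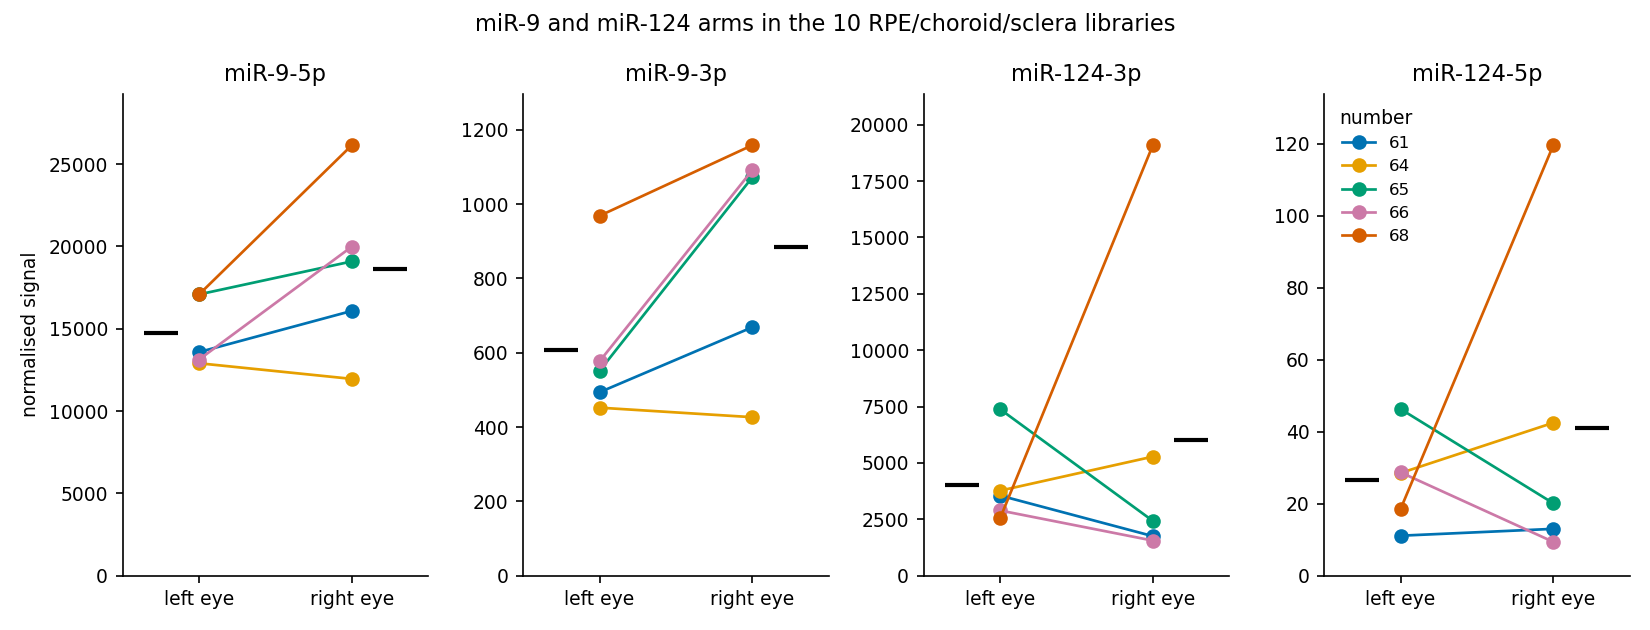
Normalised signal (y axes from 0, one panel per arm) of miR-9-5p, miR-9-3p, miR-124-3p and miR-124-5p in left and right eyes; each line joins the 2 libraries of a number, and black bars are the means of the 5 libraries of a side. Both miR-9 arms are higher in the right eye for every number except 64, while for both miR-124 arms right eye 68 lies above the other 9 libraries.

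The spread of the arms over the 10 libraries differed in size. As the SD of log2(signal + 1), where 1 is the pseudocount added to each value, it was 0.35 for miR-9-5p and 0.57 for miR-9-3p, against 1.07 for both miR-124 arms. The median over the 588 tested miRNAs was 0.34. Ordered from the widest spread, miR-124-3p stood at position 20, miR-124-5p at 21, miR-9-3p at 100 and miR-9-5p at 280. Without right eye 68 the SD was 0.72 for miR-124-3p, 0.78 for miR-124-5p, 0.54 for miR-9-3p and 0.27 for miR-9-5p, and positions became 44, 34, 106 and 354.

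The first comparison asked whether the arms differ between right and left eyes, with the shared number as a block. No miRNA of the 588 passed an adjusted p of 0.05 in limma (0%), and 13 had an unadjusted p under 0.05 (2.21%). Both miR-9 arms were among these 13 and neither passed the adjusted threshold. Mean miR-9-3p signal was 609 ± 207 for left eyes and 884 ± 320 for right eyes (SD, 5 libraries a side). The log2 fold change of right over left was 0.50, with a standard error of 0.17, and was positive in 4 of 5 pairs (limma, adjusted p = 0.967, unadjusted p = 0.0209). Its unadjusted p was the second lowest of the 588. For miR-9-5p the means were 14756 ± 2139 and 18652 ± 5236, and the log2 fold change was 0.30, standard error 0.12, positive in 4 of 5 pairs (limma, adjusted p = 0.967, unadjusted p = 0.0387). Right-eye means without right eye 68 were 815 ± 324 for miR-9-3p and 16778 ± 3625 for miR-9-5p. The unadjusted 95% interval of the log2 fold change was 0.10 to 0.89 for miR-9-3p and 0.02 to 0.58 for miR-9-5p. Without right eye 68 and with no block, the log2 fold changes were 0.38 and 0.17. Being higher in the right eye in at least 4 of 5 pairs held for 87 of the 588 miRNAs (14.8%). One direction in all 5 pairs held for 17 (2.89%), none of the 4 arms among them. The 2 miR-9 arms are cut from the same hairpins and are not independent of each other. Summed markers of other cells overlapped between sides: fibroblast and smooth muscle miRNAs gave 842 to 1060 k in left and 836 to 1008 k in right eyes, and leukocyte miRNAs (5 of 5 higher in the right eye) 18.0 to 22.9 k and 18.6 to 23.1 k. Of 9 miRNAs of surface epithelium, cornea and lens, 8 were lower in right eyes (median -0.92 on the log2 scale), with sums of 72.5 to 254.4 k in left and 32.9 to 214.0 k in right eyes, and none passed. The photoreceptor sum was 243 to 449 k in left and 167 to 1285 k in right eyes, and the part of these other cells in the miR-9 values was not tested.

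Neither miR-124 arm passed. Mean miR-124-3p signal was 4026 ± 1941 for left eyes and 6020 ± 7457 for right eyes (SD, 5 libraries a side), while its log2 fold change was -0.02, standard error 0.62, positive in 2 of 5 pairs (limma, adjusted p = 0.989). The right-eye mean was 2753 ± 1724 without right eye 68, below that of the left eyes. The unadjusted 95% interval of that difference ran from 0.357-fold to 2.70-fold. The pairs went in opposite directions: the right eye had 7.52-fold the signal of the left in number 68 and 1.40-fold in number 64, but 0.329-fold in number 65, 0.493-fold in number 61 and 0.538-fold in number 66. Without number 68 the log2 fold change of miR-124-3p was -0.76. For miR-124-5p the means were 26.6 ± 13.2 and 40.9 ± 45.8, a log2 fold change of 0.14 (limma, adjusted p = 0.985) that was -0.48 without number 68. The right-eye mean of miR-124-5p without right eye 68 was 21.2 ± 14.8, also below the left. Over the 4 arms the median log2 fold change was 0.22, with 3 of 4 higher in the right eye, beside a median of 0.02 and 54.3% higher over all 588.

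Other neural miRNAs were compared in the same way, from lists chosen with earlier results of these data known. Of the photoreceptor cluster, 3 of 3 members had a positive log2 fold change (median 0.15) although the right eye was higher in 2 of 5 pairs for each, and none passed. Of 14 other neuron-enriched miRNAs 12 were kept, 7 higher and 5 lower in the right eye (median 0.04), and none passed. The most abundant were miR-132-3p, an activity-regulated miRNA (log2 fold change 0.10), miR-128-3p (-0.15), the synaptic miR-138-5p (0.05), miR-218-5p of motor neurons (-0.21) and miR-129-5p (-0.16). Of 4 oligodendrocyte miRNAs, which mark myelinating glia, 2 were higher and 2 lower (median -0.03), and none passed. They were miR-338-3p (0.07), miR-338-5p (-0.12), miR-219a-5p (0.15) and miR-219a-2-3p (-0.65), the last with 500.6 in left eye 66 and no more than 57.5 elsewhere.

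**Figure D2:**
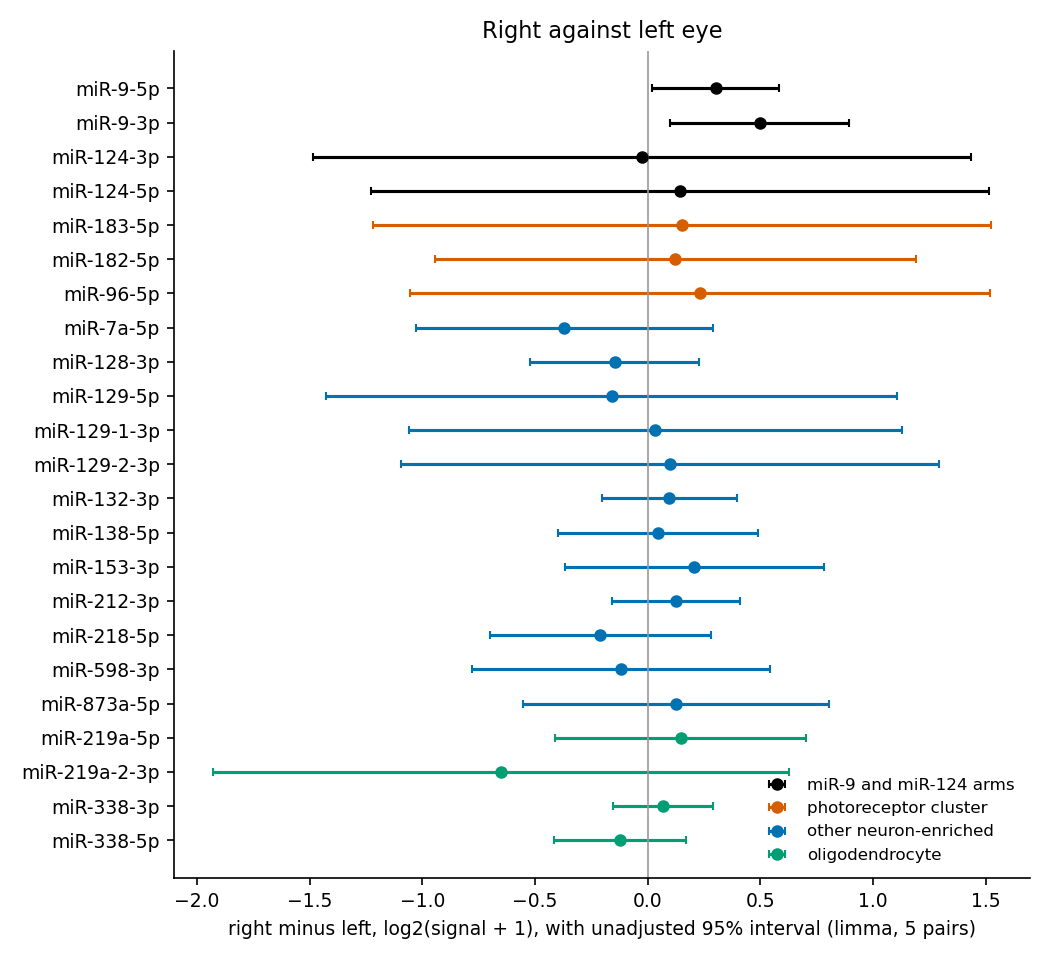
Right minus left eye difference in log2(signal + 1) (x axis) for the miR-9 and miR-124 arms, the photoreceptor cluster, other neuron-enriched miRNAs and oligodendrocyte miRNAs; points are limma estimates over 5 pairs and bars their unadjusted 95% intervals. The miR-9 arms, at 0.30 and 0.50, are the entries whose interval lies above 0, and none of the entries shown passed the adjusted threshold.

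The second comparison asked whether the 5 numbers differ by more than the 2 eyes of a number do. The limma F test over numbers called 7 of the 588 miRNAs at an adjusted p of 0.05 (1.19%), and 137 had an unadjusted p under 0.05 (23.3%). None of the 4 arms passed. The mean of both eyes of miR-9-3p was 439 in number 64, 581 in number 61, 812 in number 65, 834 in number 66 and 1064 in number 68 (limma F test, adjusted p = 0.129, unadjusted p = 0.0155). For miR-9-5p it was 12427, 14832, 18086, 16559 and 21617 in the same order of numbers (adjusted p = 0.190, unadjusted p = 0.0364 in limma). Numbers 64 and 61 were thus the lowest and number 68 the highest for both arms, within a spread that did not pass. For the miR-124 arms the limma F test gave adjusted p = 0.637 for miR-124-3p and 0.518 for miR-124-5p. The count of 7 itself rested on single numbers, being 0 without number 61, 64 or 68, 1 without number 65 and 22 without number 66.

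Right eye 68 had the highest value of all 4 arms, but right eye 66, the lowest library for miR-124-3p, was the second highest for miR-9-5p. To name the miRNAs whose pattern was most like each, profiles of log2(signal + 1) were centred on their mean over the 10 libraries and compared by the root mean square difference, which is 0 for identical patterns. It is a description over 10 libraries that share the normalisation, with no test. From miR-124-3p, the nearest of the 587 others was miR-183-5p at 0.16, then miR-129-5p at 0.22, miR-183-3p at 0.25, miR-96-5p at 0.27 and miR-190b-5p at 0.30. Next came miR-182-5p at 0.32. The partner arm miR-124-5p was at position 8 (0.41), and at 13 without right eye 68. The median distance over all 587 was 1.10, and a profile with the same value in every library would lie at 1.02. So the miRNAs nearest to miR-124-3p include all members of the photoreceptor cluster, abundant in rods and cones. Without right eye 68, miR-183-5p (0.17) and miR-129-5p (0.20) kept the first positions, and miR-183-3p, miR-96-5p, miR-190b-5p and miR-182-5p were at positions 4, 5, 6 and 7.

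Signals of miR-183-5p by library show this likeness. They were 18739, 23999, 42962, 19988 and 16083 in left eyes and 11521, 33579, 17084, 12667 and 125511 in right eyes, for numbers 61, 64, 65, 66 and 68. As for miR-124-3p, right eye 68 was highest and left eye 65 second, with right eyes 61 and 66 the lowest pair. For miR-129-5p, from neurons, left eyes had 215, 195, 392, 139 and 152, and right eyes 104, 233, 155, 65.3 and 805. The mature sequences of these neighbours are given so that their seeds, in capitals, can be compared:
miR-183-5p: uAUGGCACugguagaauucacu
miR-96-5p: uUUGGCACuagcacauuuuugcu
miR-182-5p: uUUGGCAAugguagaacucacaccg
miR-129-5p: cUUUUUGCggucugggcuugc
miR-190b-5p: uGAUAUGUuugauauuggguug

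The 5 seeds all differ, those of miR-96-5p and miR-182-5p in the last base alone, and none is that of miR-9. The RefSeq table held no arm of miR-124, so the seed of miR-124-3p itself was not compared. One further miRNA, named after its values were seen, is miR-3078-5p, whose hairpin lies at chr14:64591185-64591271 in an exon of Mir124a-1hg, the transcript that also holds Mir124a-1. It was at position 7 of 587, at a distance of 0.39 from miR-124-3p, and at position 9 without right eye 68. Its signal was 19.4, 15.8, 36.8, 16.4 and 14.6 in left eyes and 6.50, 24.4, 22.4, 12.9 and 84.4 in right eyes, with the highest again in right eye 68 and left eye 65. The opposite arm miR-3078-3p was listed at 0 in 7 of 10 libraries.

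The pattern of miR-9-5p was nearest to that of miR-29b-3p, a collagen-targeting miRNA, at a distance of 0.12. Then came miR-192-5p at 0.17, miR-199a-5p at 0.17, miR-487b-3p of the imprinted Dlk1-Dio3 region at 0.17 and miR-101a-3p at 0.18. The median over 587 was 0.46 and an even profile lies at 0.33. These positions moved without right eye 68: miR-29b-3p was then second, miR-192-5p at 14, miR-199a-5p at 20, miR-487b-3p at 27 and miR-101a-3p at 37, and the nearest was miR-199b-5p at 0.08. Of these, miR-29b-3p had 258, 238, 272, 240 and 347 in left and 268, 221, 351, 332 and 399 in right eyes. It was higher in the right eye in 4 of 5 pairs with number 64 the exception, as were both miR-9 arms. The partner arm miR-9-3p, cut from the same hairpins, was only at position 86 from miR-9-5p (0.29), and at 190 without right eye 68. A near position is therefore not read as a shared origin. For miR-9-3p the nearest was miR-199a-5p at 0.22, and miR-9-5p was at position 10. None of the neighbours below has the seed of miR-9:
miR-29b-3p: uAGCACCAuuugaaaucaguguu
miR-192-5p: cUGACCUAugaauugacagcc
miR-199a-5p: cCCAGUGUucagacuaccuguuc

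**Figure D3:**
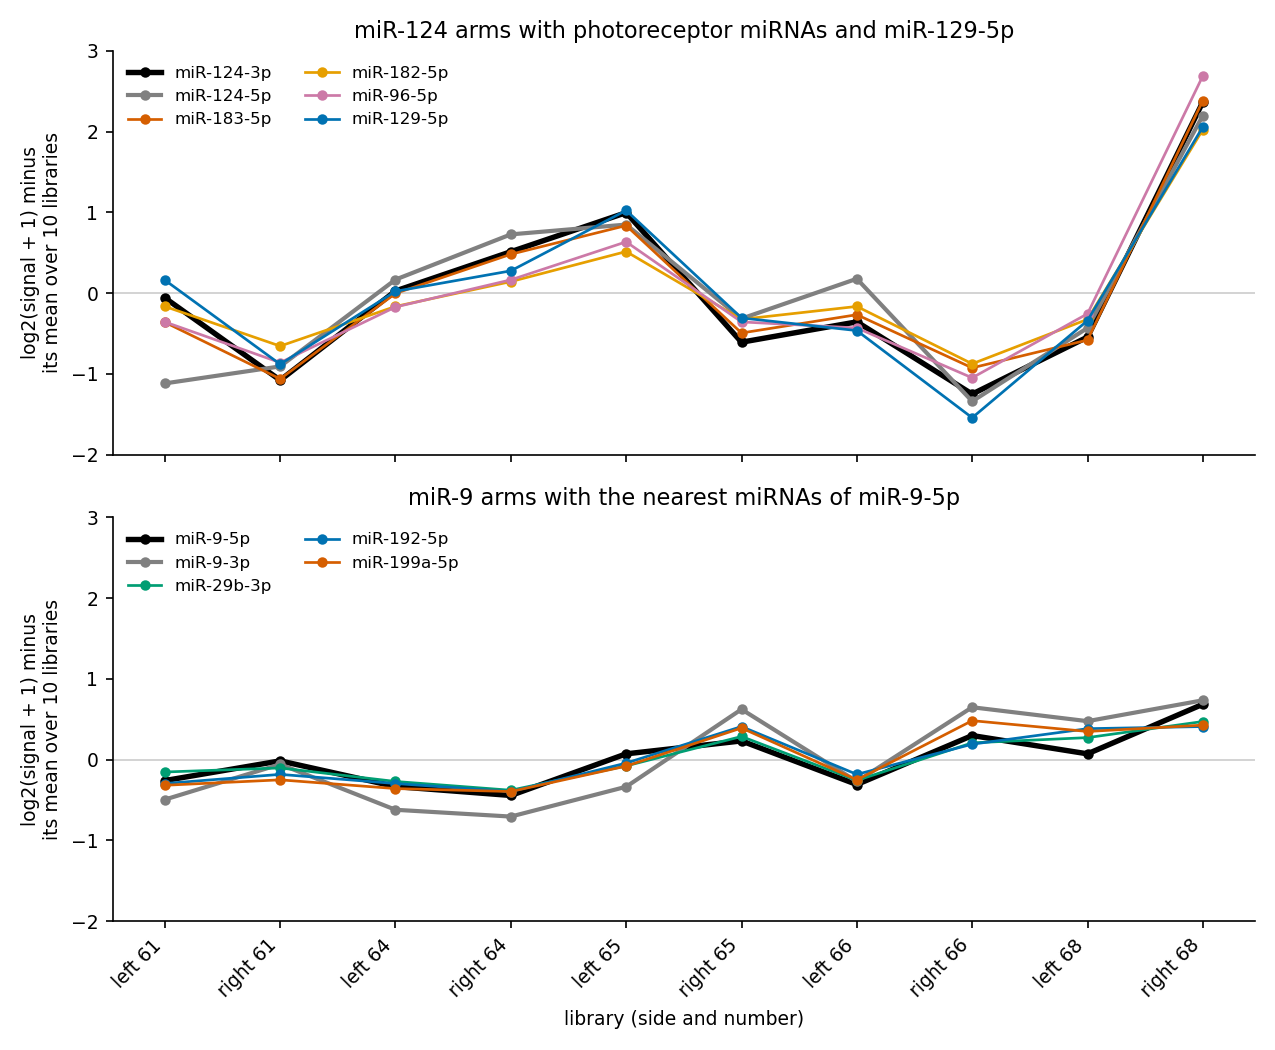
Centred log2(signal + 1) (y axis) in each of the 10 libraries (x axis, side and number) for the miR-124 arms with the photoreceptor miRNAs and miR-129-5p (upper panel) and for the miR-9 arms with neighbours of miR-9-5p (lower panel, same scale). The upper lines are high in left eye 65 and right eye 68 and low in right eyes 61 and 66, while the lower lines stay within a narrower band.

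By list, the photoreceptor cluster had a median distance of 0.27 from miR-124-3p and 0.88 from miR-9-5p. For the other neuron-enriched list it was 0.75 from miR-124-3p and 0.45 from miR-9-5p. The scales differ, as the median over all 587 miRNAs was 1.10 from miR-124-3p and 0.46 from miR-9-5p. Distances from miR-124-3p and from miR-9-5p are therefore not compared with each other. Beside these medians, the other neuron-enriched list was nearer than most miRNAs to miR-124-3p and about at the median for miR-9-5p. Oligodendrocyte miRNAs were at 1.14 and 0.47, close to both medians. From miR-9-5p, the leukocyte list was at 0.24, endothelium at 0.26, erythroid at 0.33 and fibroblast and smooth muscle at 0.35. The RPE and melanocyte list was at 0.42, striated muscle at 0.58 and surface epithelium, cornea and lens at 1.05. Without right eye 68 the pairs of distances, from miR-124-3p and then from miR-9-5p, were 0.26 and 0.60 for the photoreceptor cluster, 0.64 and 0.42 for the other neuron-enriched list and 0.82 and 0.38 for the oligodendrocyte list. Of the 12 other neuron-enriched miRNAs kept, 11 had their highest value in right eye 68 and 7 their lowest in right eye 66, the libraries that held the extremes of miR-124-3p. Their summed signal was 6.76 k in right eye 68 and 3.28 to 4.64 k in the other 9 libraries. The 4 miR-9 and miR-124 arms also all had their highest value in right eye 68. The shares of all 588 miRNAs with such extremes in right eyes 68 and 66 were not counted. These counts are therefore not read as a trait of neural miRNAs. Several arms of miR-129 are in the list and are not independent of each other.

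**Figure D4:**
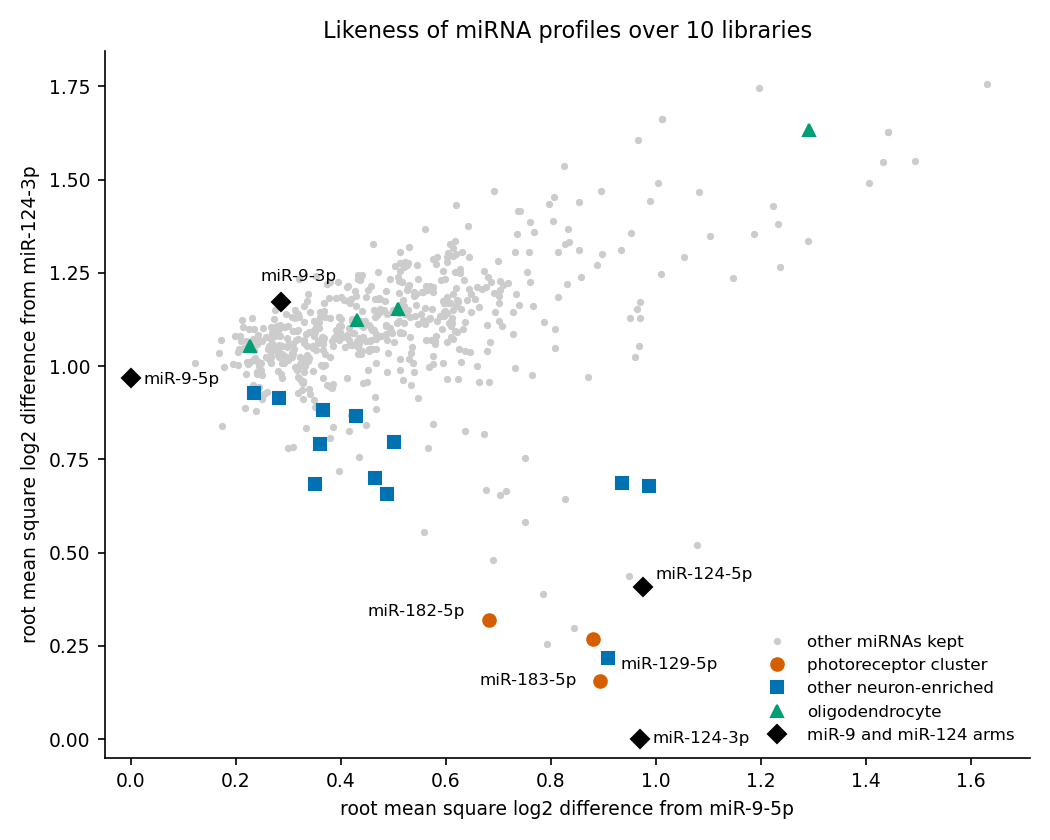
Root mean square log2 difference of each tested miRNA from miR-9-5p (x axis) and from miR-124-3p (y axis) over 10 libraries; each point is a miRNA, coloured by list. The photoreceptor miRNAs and miR-129-5p lie near miR-124-3p at the bottom, and miR-9-5p lies 0.97 from miR-124-3p (0.83 without right eye 68).

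How far each member kept pace with the photoreceptor cluster was read from ratios within a library. Most of the photoreceptor sum was miR-182-5p, with a mean signal of 340524, beside 32213 for miR-183-5p and 2218 for miR-96-5p. miR-124-3p stood at 1.23 ± 0.269% of the photoreceptor sum (SD, n = 10). The lowest value was 0.914% in right eye 61 and the highest 1.64% in left eye 65, a 1.80-fold range. In right eye 68, where both were highest, it was 1.49%. For miR-9-5p the figure was 5.89 ± 2.92% of the photoreceptor sum, from 2.03% in right eye 68 to 11.9% in right eye 66, a 5.87-fold range. The lowest without right eye 68 was 3.44%, in right eye 64, and the range 3.47-fold, while the range for miR-124-3p was still 1.80-fold. The ratio of miR-9-5p to miR-124-3p ran from 1.37 in right eye 68 to 12.9 in right eye 66, and from 2.26, in right eye 64, without right eye 68. On the log2 scale the SD over 10 libraries was 0.32 for miR-124-3p to the photoreceptor sum, 0.74 for miR-9-5p to that sum and 1.02 for miR-9-5p to miR-124-3p. Without right eye 68 these were 0.32, 0.59 and 0.88. The log2 SD of miR-182-5p alone, most of the sum, was 0.81, or 0.41 without right eye 68. A ratio of an even signal to the sum would thus spread about as widely as miR-182-5p. These ratios use the same values as the distances above and are not separate support.

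Side differences of the 3 ratios are given with an exact two-sided permutation that flips the sign of each of the 5 pairs. Its smallest possible p is 0.0625, so it could not pass 0.05 whatever the values, and its p-values do not show that the sides were alike. For miR-124-3p to the photoreceptor sum the mean log2 ratio was -6.31 ± 0.27 in left and -6.46 ± 0.37 in right eyes, higher in the right eye in 2 of 5 pairs (exact p = 0.4375, adjusted over the 3 ratios 0.75). For miR-9-5p to that sum it was -4.33 ± 0.32 and -4.16 ± 1.05, higher in 3 of 5 (exact p = 0.75, adjusted 0.75). Between miR-9-5p and miR-124-3p the log2 ratio averaged 1.97 ± 0.56 for left and 2.30 ± 1.40 for right eyes, higher in 3 of 5 (exact p = 0.6875, adjusted 0.75). Unpaired and without right eye 68, the right minus left differences were -0.25, 0.54 and 0.79 in the order given. With miR-183-5p alone in place of the sum, the paired difference was -0.18 for miR-124-3p and 0.15 for miR-9-5p, beside -0.15 and 0.18 with the sum.

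The last comparison asked whether the balance of the 2 arms of a hairpin differed. The 5p arm led in miR-9 and the 3p arm in miR-124, in all 10 libraries. The miR-9-5p signal was 23.8 ± 4.86 times that of miR-9-3p (SD, n = 10; range 17.6 in left eye 68 to 31.0 in left eye 65). The miR-124-3p signal was 155.5 ± 61.2 times that of miR-124-5p, from 100.7 in left eye 66 to 320.1 in left eye 61. The minor arm thus made up 3.13% to 5.37% of the miR-9 signal and 0.311% to 0.983% of the miR-124 signal. Ordered by the size of the log2 arm ratio among the 158 hairpins with both arms kept, miR-124 was at position 28 and miR-9 at 56. No hairpin of the 158 passed in limma (0%), and 3 had an unadjusted p under 0.05 (1.9%), neither of these 2 among them. For miR-9 the log2 arm ratio (5p over 3p) averaged 4.64 ± 0.32 for left and 4.45 ± 0.27 for right eyes (difference -0.20, adjusted p = 0.935 in limma). For miR-124 it was -7.22 ± 0.60 and -7.05 ± 0.20 (difference 0.17, adjusted p = 0.963 in limma), and without number 61 this difference was -0.10.

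**Figure D5:**
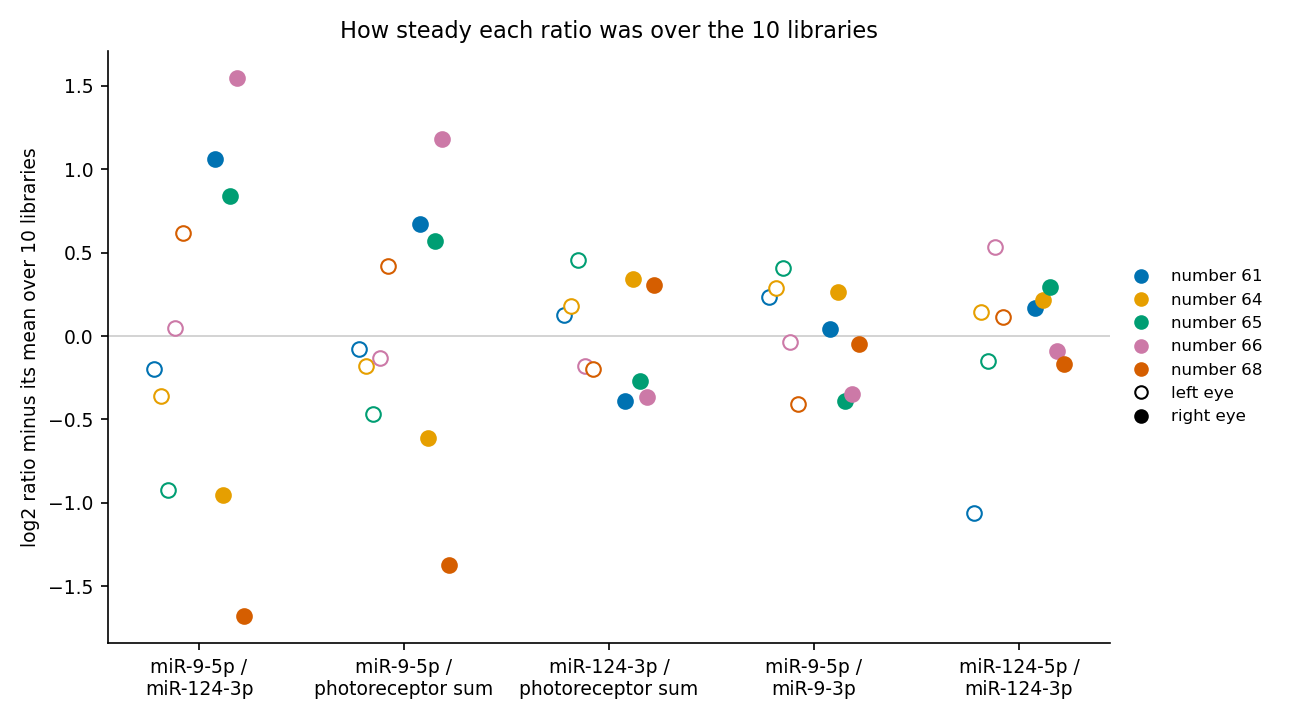
Log2 ratios minus their mean over 10 libraries (y axis) for miR-9-5p to miR-124-3p, miR-9-5p and miR-124-3p to the photoreceptor sum, and the 2 arms of each hairpin; open points are left eyes, filled points right eyes, colours the numbers. The points for miR-124-3p to the photoreceptor sum (SD 0.32) lie closer together than those for miR-9-5p to that sum (SD 0.74).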

How the data were processed

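Small RNA libraries were made with the TruSeq kit, per the labels' protocols. The authors deposited a normalised signal per mature miRNA; per the submitters' processing notes Bowtie, Partek and the build GRCm38 (mm10) were named, with no versions. The method of normalisation was not given in the sources used here. Of the signal values above 0, 7.31% are whole within 0.001, so no count model was used. Values were taken as log2(signal + 1) for the 588 miRNAs with a mean of at least 10, and such fold changes understate those of low signals. Right and left eyes were compared with limma 3.58.1 in R 4.3.3 (mean-variance trend, two-sided, Benjamini-Hochberg at 0.05), with the shared title number as a block because the protocol compares the eyes of a mouse. Left and right libraries of a number, each taken as deviations from its side's mean, correlated at 0.12, 0.45, 0.01, -0.13 and 0.28 across miRNAs for the 5 numbers, so the pairing rests on the titles. The fit was tested on simulated data. Named miRNAs were the members, the 5 nearest profiles of miR-9-5p and miR-124-3p, the photoreceptor and oligodendrocyte lists and the 5 most abundant of the other neuron list; other names were chosen after their values were seen. Members and lists were chosen with earlier results of these data known. The RefSeq miRNA table held 1135 of the 1340 names and 2 of the 4 members, so sequences are given for the miR-9 arms; deposited stop positions lie 1 base past RefSeq's end in all 1133 rows with the same start, and starts alone are printed.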

Additional observations from a re-analysis of the deposited data

Results flagged for a closer look

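Each side of 5 eyes was searched on the log2 scale for a library whose gap to the nearest other exceeded 0.71 of the side's range. Of 62 such checks 6 were past this limit, where chance gives about 1 in 20 for independent values; here a sum was checked beside its own members. Left eye 65 was apart from the other left eyes in miR-182-5p (403594), in miR-96-5p (2428) and in the summed photoreceptor cluster (449 k), and it also held the highest left-eye value of miR-124-3p, 7383. Right eye 68 was apart in the sum of the other neuron-enriched list, at 6.76 k. Left eye 66 was apart in the oligodendrocyte miRNA miR-219a-2-3p, at 500.6, while the 4 miR-9 and miR-124 arms were within the range of the other libraries there. Left eye 68 was apart in miR-101a-3p, a near neighbour of miR-9-5p, at 57345. None of the 8 checks on the 4 arms themselves was past the limit.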

How the results depend on the processing

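In all, 15 results gave 179 values under other settings (pseudocount, filter, trend, centring, no block, or a number left out). Of these, 162 were counted as unchanged. A log2 difference had to keep its direction and side of the threshold. A count of miRNAs only had to stay similar, so 9 beside 7 between numbers, with a pseudocount of 0.5, was unchanged. Tests between numbers have no direction, and the paired ratio tests could not pass the threshold whatever the values. The 162 is therefore not a measure of how stable the results are. The miR-9-5p difference stayed between 0.17 and 0.41 and that of miR-9-3p between 0.38 and 0.64 on the log2 scale, never past the adjusted threshold (adjusted p 0.830 to 1). With no replicate block the adjusted p of all 4 arms was 0.997 in limma, and the paired and unpaired fits made the same count of 0 calls. With single numbers left out, the difference ran from -0.76 to 0.37 for miR-124-3p, from -0.48 to 0.56 for miR-124-5p and from -0.10 to 0.37 for the miR-124 arm ratio. The log2 ratio difference ran from -0.032 to 0.98 for miR-9-5p to miR-124-3p and from -0.11 to 0.67 for miR-9-5p to the photoreceptor sum. With no replicate block and without right eye 68, an alternative added after seeing the data, miR-124-5p was at -0.39. With a mean signal of at least 100, miR-124-5p and its arm ratio had no value. The count of miRNAs differing between numbers was 7 as reported, 23 with a mean signal of at least 100, 0 with no trend, 12 with each library centred on its median, and 0 to 22 with a number left out; the cause was not tested. Depth is unknown, and libraries share rank steps of signal.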

Other observations

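The table also lists relatives of the 4 arms that share a locus with them. The miRNA miR-9b-5p is annotated on the strand opposite to the Mir9-1 hairpin and had a signal of 0 to 2.80, listed at 0 in 3 of 10 libraries. RefSeq lists miR-9b-5p at 2 loci, so its signal cannot be assigned to a single locus. Its mature sequence, with the seed in capitals, is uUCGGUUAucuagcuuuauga, and its seed is not that of miR-9-5p or miR-9-3p. The antisense miR-124b-3p, placed at the Mir124a-2 hairpin, had a signal of 0 to 4.8 and was listed at 0 in 2 of 10 libraries. Neither reached the mean signal of 10 used for testing.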
